A study of Homo sapiens with 9 samples.

Results

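Activin-treated HCT116 cells were compared with untreated HCT116 cells over all genes. The comparison took the 3 libraries whose titles name Activin alone and the 3 libraries whose titles name NC, 6 of the 9 RNA libraries of the series. HCT116 is an established human colorectal carcinoma line. The activin cells received 100 ng/mL activin A for 5 days, the control cells received no factor, and the culture time of the controls is not stated. The other 3 libraries, from cells given HGF after activin, entered the fit, where they bear on the spread and on which genes passed the filter, and are not described. The libraries were made from RNA without its ribosomal part and sequenced from both ends, and the deposited table held a read count and an FPKM value, which is scaled for gene length and library size, per gene and library. All libraries come from a single cell line, which is known for mismatch repair deficiency and for frameshift mutations in the receptor genes TGFBR2 and ACVR2A that the controls carry too. No source says that the replicates were separate cultures, so the p-values measure the spread between these samples, which may be technical.

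Activin A belongs to the TGF-beta family. It binds type II and type I serine/threonine kinase receptors, which phosphorylate SMAD2 and SMAD3, and these enter the nucleus with SMAD4 to act on target genes. In epithelial cells the pathway is known for growth arrest and for altered adhesion and matrix genes, and in stem cell cultures activin is used to direct cells towards endoderm.

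The library totals ran from 57453977 to 77016167 counts in the controls and from 63224256 to 64728266 in the activin cells. Activin replicate 2 stood apart. Its profile correlated with the other 2 activin libraries at Pearson r of 0.941 for both, while those 2 correlated at 0.957 and the control pairs at 0.965 to 0.97. It held reads for 23349 genes, against 25200 and 25237 genes in the other activin libraries. Among 10 epithelial markers, 9 were tested and 0 were called, and KRT8, KRT18, KRT19 and EPCAM were at 186 CPM or more in each of the 6 libraries (CPM, the counts of a gene scaled to a common library total with factors from the trimmed mean of M values). CEACAM5 was below the filter on low counts, and VIL1 and CDH17 stayed at or below 0.529 CPM. Of 16 fibroblast, endothelial and leukocyte markers 10 were tested, and their summed level was 29.9 to 31.6 CPM in the controls and 64.6 to 71.6 CPM after activin. PTPRC, CD3E, COL1A2, DCN and CDH5 were below the filter and LUM was not analysed here. CD68, a macrophage and lysosomal protein, was at 2.99, 1.64 and 1.23 CPM in the controls and 11.7, 21.2 and 8.69 CPM after activin (log2 fold change 2.83, SE 0.41, adjusted p = 0.00131). COL1A1 rose to 48.4 ± 4.08 CPM and lost its call without control replicate 3, and COL3A1 fell from 1.91 ± 0.858 CPM to counts in a single activin library. The part of these markers in the changes below was not tested.

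After activin 1424 of 20988 tested genes rose (6.78%) and 970 fell (4.62%), 2394 in all (11.4%). A gene was called when its adjusted p was under 0.05 and its change was 2-fold or more. Each adjusted p below is from the quasi-likelihood test of edgeR, adjusted by Benjamini and Hochberg over the 20988 genes. Every SE in the text is the absolute log2 fold change divided by the square root of the F statistic of that test. It rests on the fit to all 9 libraries and is not the spread of the 6 printed values. The values of the groups did not overlap in 42.2% of tested genes and in 99.2% of called genes, so that a lack of overlap adds little to a call. The median log2 fold change over all tested genes was 0.02, and 0.1 with libraries scaled by their totals. The scaling itself sets the centre near 0, so a shift shared by most genes cannot be seen. The changes below are relative to that centre. Without activin replicate 2 the test called 1258 genes higher and 976 lower. Leaving out control replicate 1 gave 599 lower calls and leaving out control replicate 2 gave 630. Fewer cells of a kind and less RNA per cell cannot be told apart in these bulk libraries.

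**Figure D1:**
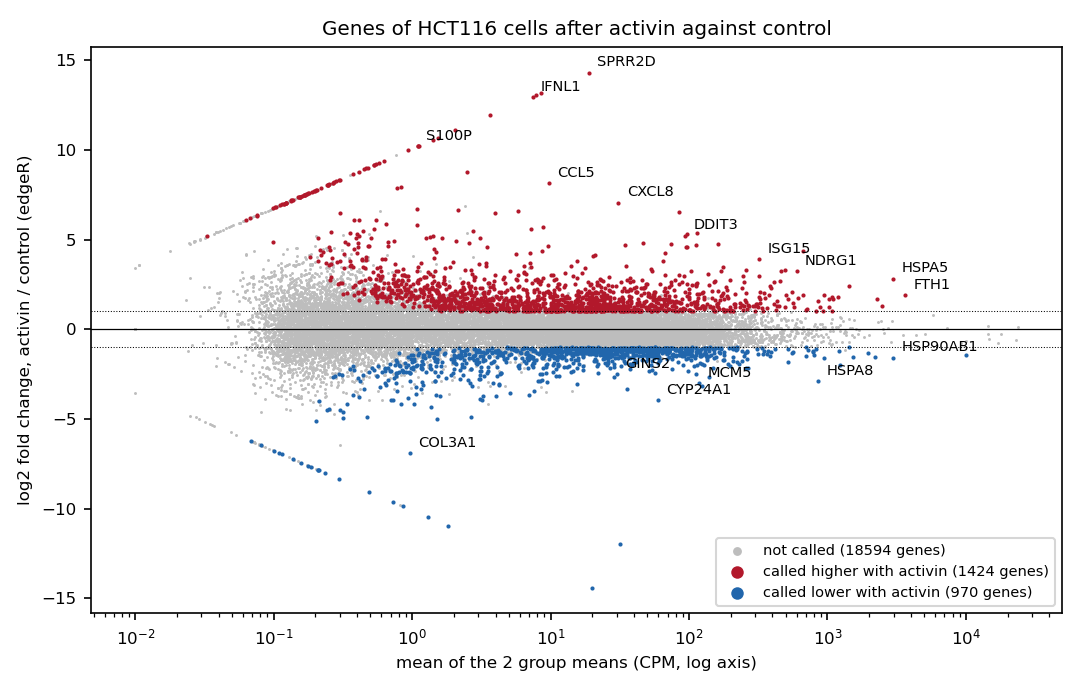
Each point is 1 of the 20988 tested genes, with the mean CPM of the control and activin groups on a log axis and the edgeR log2 fold change of activin over control on the vertical axis. The 1424 genes called higher are red and the 970 called lower are blue. Dotted lines mark a log2 fold change of 1 and -1, and the slanting rows at the top and bottom left are genes with no counts in 1 group, whose fitted value depends on the prior count.

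The genes are described below by 39 lists of pathways and families, each with the number of tested members that rose or fell and their median log2 fold change. Some genes stand in 2 lists. Members at 0 counts in the controls passed the filter through the treated libraries alone and could not be counted as fallen. Where a list had 0 calls in a direction, at most 4 of its members moved that way at an unadjusted p under 0.05, and DESeq2 called 1 gene in all 25 such cases, EOMES. The lists with the largest share of risen members were the ATF4 and unfolded protein response genes (23 of 32) and the ERK feedback, AP-1 and immediate-early genes (23 of 34). The largest share of fallen members was in the replication licensing, origin firing and fork genes (26 of 53).

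**Figure D2:**
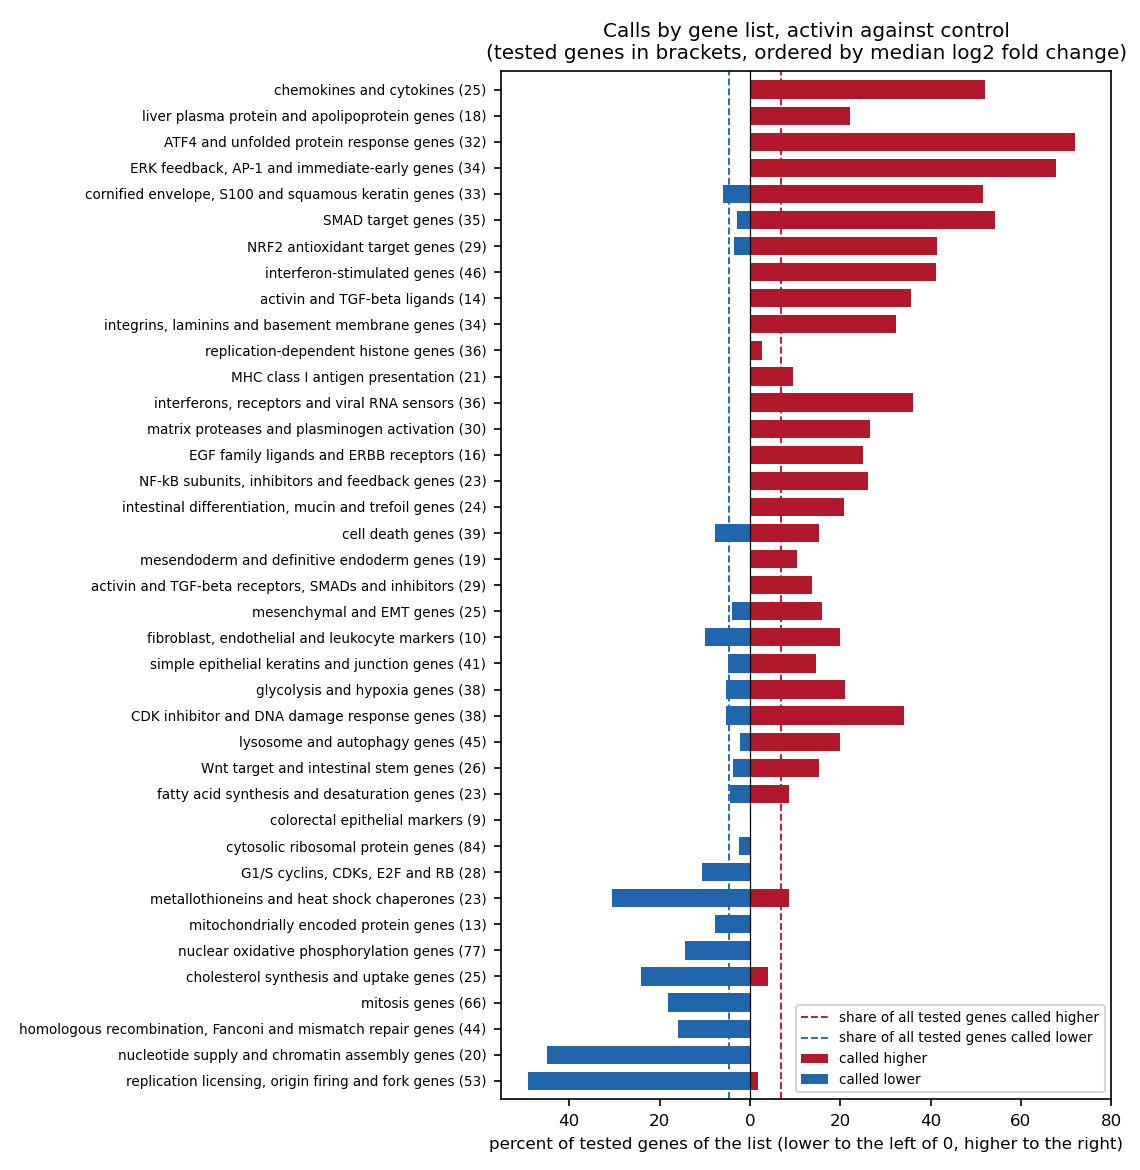
Bars give the percent of the tested genes of each list that were called higher (red, to the right) or lower (blue, to the left) after activin, with lists ordered by their median log2 fold change and the number of tested genes in brackets. Dashed lines mark the shares over all tested genes, 6.78% higher and 4.62% lower. The ATF4 list reaches 71.9% higher and the replication list 49.1% lower.

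Some ligands, inhibitors and target genes of the pathway rose. Of 14 tested TGF-beta family ligands 5 rose and 0 fell (median log2 fold change 0.85), with INHBA, which encodes the activin A subunit, below the filter. GDF15, a stress-responsive member of the family, was at 122, 143 and 133 CPM in the control libraries and 529, 886 and 532 CPM in the activin libraries (log2 fold change 2.29, SE 0.22, adjusted p = 0.000149). TGFB1 rose to 138 ± 53.1 CPM from 65.5 ± 4.23 CPM (log2 fold change 1.08) and lost its call without activin replicate 2, which was its highest library, and without control replicate 3, which left 3 ligands called. Among 29 receptors, SMADs and inhibitors, 4 rose and 0 fell (median 0.26). The 4 were all extracellular or intracellular inhibitors of the family. NOG, FSTL3 and BAMBI encode the BMP antagonist noggin, an activin-binding protein and a pseudoreceptor, and SKIL encodes a SMAD corepressor. FSTL3 stood at 24, 23.8 and 25 CPM in the controls and 44.6, 108 and 58.9 CPM after activin (log2 fold change 1.54, SE 0.29, adjusted p = 0.00488). NOG was low, at 0.249 ± 0.165 and 1.18 ± 0.128 CPM, and NOG and SKIL both lost their calls without control replicate 2, SKIL also without control replicate 3. The receptor genes ACVR2A, ACVR1B and TGFBR2 had log2 fold changes of -0.25, 0.26 and -0.8, and SMAD2, SMAD3 and SMAD4 of -0.14, 0.89 and 0.01. None of these 6 was called, although the adjusted p of SMAD3 (0.0024) and TGFBR2 (0.0395) was under 0.05 below the minimum fold.

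Of 35 tested SMAD target genes 19 rose and 1 fell (median 1.43). SNAI2, the transcription factor Slug, was at 0.18, 0.342 and 0.286 CPM untreated and 4.46, 3.99 and 2.65 CPM after activin (log2 fold change 3.77, SE 0.37, adjusted p = 0.000175), and PMEPA1, a negative feedback gene of the pathway, at 0.98, 0.952 and 1.24 CPM untreated and 7.43, 9.62 and 7.31 CPM after activin (log2 fold change 2.94, SE 0.34, adjusted p = 0.000388). Both were low in the controls. ANGPTL4, CCN2, PDGFB and JUNB had log2 fold changes of 2.85, 2.76, 2.64 and 2.65, and TSC22D1 rose from 281 ± 12 to 1057 ± 117 CPM. The fallen member was ID3, an inhibitor of helix-loop-helix factors that BMP signalling is known to induce, at 128, 152 and 138 CPM in the controls and 39.3, 74.1 and 48.3 CPM after activin (log2 fold change -1.37, SE 0.22, adjusted p = 0.00253). SMAD7, the classic feedback inhibitor, was at 5.67, 5.5 and 6.19 CPM untreated and 8.57, 12.4 and 7.35 CPM after activin, with every activin library above the controls but an adjusted p of 0.0623. LEFTY1 and TGFBI were not called, and their low levels were limited by depth. Their control and activin means were 0.196 and 0.17 CPM for LEFTY1 and 0.0513 and 0.178 CPM for TGFBI.

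Most immediate-early genes rose. Of 34 genes of ERK feedback, AP-1 and the immediate-early response 23 rose and 0 fell (median 1.5), and 18 rose when activin replicate 2 was left out. EGR1, a zinc finger factor induced by ERK, had 54.5, 94.1 and 65.3 CPM in the controls and 499, 734 and 461 CPM after activin (log2 fold change 2.99, SE 0.31, adjusted p = 0.000211). JUN, a subunit of AP-1, had 19, 19.2 and 17.5 CPM untreated and 127, 191 and 133 CPM after activin (log2 fold change 3.02, SE 0.33, adjusted p = 0.000308). For both genes the activin libraries lay several-fold above all controls, and replicate 2 was the highest. EGR3, KLF2, FOSL1 and the phosphatase DUSP5 had log2 fold changes of 3.53, 3.39, 2.27 and 2.7. FOS itself rose less (log2 fold change 1.52, adjusted p = 0.0149) and lost its call without control replicate 2. DUSP6, which removes phosphate from ERK, was at 84.3, 90.5 and 95.7 CPM untreated and 217, 237 and 226 CPM after activin (log2 fold change 1.33, SE 0.15, adjusted p = 0.000386), with a narrow spread in both groups. The SPRY and SPRED inhibitors, ETV4 and ETV5 were not called. The AP-1 letters TGAGTCA were on either strand in the 250 bases before the RefSeq start in 0 of the 16 promoters of risen members that could be matched, and in 4.16% of all 27305 promoters (2.97% of those of tested genes).

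Of 16 EGF family genes 4 rose and 0 fell. AREG, the EGF receptor ligand amphiregulin, had 481, 469.9 and 480.02 CPM in the controls and 1396, 1872 and 1442 CPM after activin (log2 fold change 1.72, SE 0.15, adjusted p = 0.000108), and ERRFI1, a feedback inhibitor of the receptor, 532, 514 and 552 CPM untreated and 1906, 1639 and 1982 CPM after activin (log2 fold change 1.79, SE 0.21, adjusted p = 0.000445). TGFA and HBEGF had log2 fold changes of 1.23 and 1.64, HBEGF losing its call without control replicate 1. The receptor EGFR was not called (log2 fold change 0.49, adjusted p = 0.326), so the risen members were ligands and an inhibitor.

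Laminins and a laminin receptor were among the matrix genes that rose. Of 34 integrin, laminin and basement membrane genes 11 rose and 0 fell (median 0.85). LAMB3, a subunit of the epithelial laminin-332, was at 53, 57 and 57.1 CPM untreated and 401, 554 and 360.1 CPM after activin (log2 fold change 2.98, SE 0.26, adjusted p = 9.11e-05), and was highest in activin replicate 2. LAMA3, another subunit, had a log2 fold change of 1.21 (adjusted p = 0.00643), and its activin replicate 2 was the lowest of the 3. ITGA3, a laminin receptor subunit, rose from 281 ± 12.2 to 939 ± 249 CPM (log2 fold change 1.74), and DAG1, dystroglycan, from 7.79, 31.3 and 19.2 to 163, 239.8 and 156 CPM (log2 fold change 3.26, SE 0.45, adjusted p = 0.00103). Of 30 protease and plasminogen genes 8 rose and 0 fell, among them the urokinase gene PLAU (1.3 on the log2 scale) and its receptor gene PLAUR, at 18.1, 24.5 and 26 CPM untreated and 105, 169.6 and 102 CPM after activin (log2 fold change 2.46, SE 0.29, adjusted p = 0.000402).

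Of 25 mesenchymal and EMT genes 4 rose, SNAI2, NT5E, L1CAM and AXL, and 1 fell, S100A4. NT5E, the ectonucleotidase CD73, was at 36, 29.3 and 31.1 CPM untreated and 214, 116 and 203 CPM after activin (log2 fold change 2.47, SE 0.24, adjusted p = 0.000167). Several genes often used to define the mesenchymal state were not called. VIM stood at 4.98, 22 and 20.8 CPM in the controls and 4.02, 6.96 and 6.45 CPM after activin (adjusted p = 0.103), with overlapping groups, and CDH2, FN1, ZEB1 and TWIST1 were also not called. Of 41 simple epithelial keratin and junction genes 6 rose and 2 fell. CLDN7, a tight junction claudin, had 60, 54.1 and 51.1 CPM untreated and 208, 329 and 178 CPM after activin (log2 fold change 2.11, SE 0.27, adjusted p = 0.000694), and ESRP1, an epithelial splicing factor, rose from 119 ± 0.709 to 277 ± 38.8 CPM (log2 fold change 1.22). CDH1, E-cadherin, was at 100.1, 68 and 99.6 CPM untreated and 228, 136 and 140.3 CPM after activin (log2 fold change 0.91, adjusted p = 0.0316) and stayed under the minimum fold. KRT23 and KRT20 fell (log2 fold changes -1.82 and -1.63), KRT20 losing its call when any control library or activin replicate 1 was left out.

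**Figure D3:**
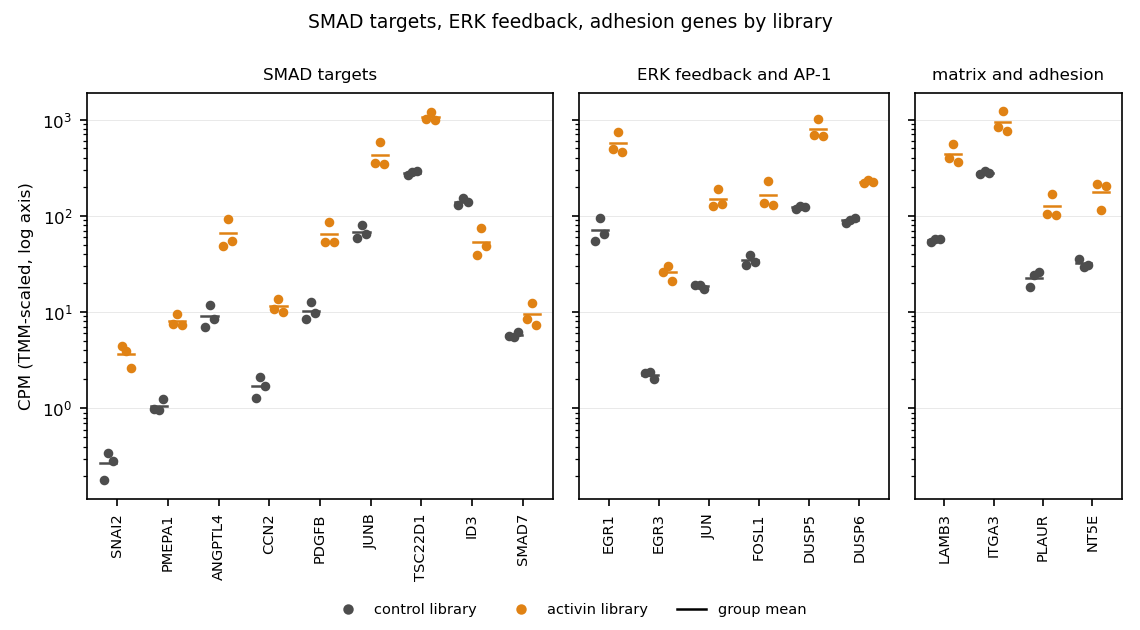
CPM on a log axis in each control library (grey) and each activin library (orange) for 9 SMAD targets, 6 ERK feedback and AP-1 genes and 4 matrix and adhesion genes, with a bar at the group mean. For 18 of the 19 genes the activin libraries lie above the controls, and for ID3 they lie below.

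Genes of the integrated stress response and the unfolded protein response formed the list with the largest share of rises. ATF4 is known to drive amino acid supply and the CHOP programme when translation is limited, while ATF6 and XBP1 raise chaperones of the endoplasmic reticulum. Of 32 tested members 23 rose and 0 fell (median 1.66). Short promoter stretches are shown for 3 of them because both branches have known DNA words. Of the 23 risen members 22 were matched to a RefSeq promoter (GRCh38.p14). The endoplasmic-reticulum stress element, the letters CCAAT and CCACG with 9 free bases between them on either strand, was in 3 of the 22 in the 250 bases before the start, against 0.0806% of 27305 promoters (0.118% of those of tested genes), and in 1 of 7 members that were not called. The amino-acid response letters TGATGNAAN were in 4 of the 22, against 3.18% of promoters (1.43% of those of tested genes), and in 0 of 7 members not called. A match is a description and not a site in use. The 250 bases before the starts of HSPA5 (chr9:125241344-125241593, minus strand), XBP1 (chr22:28800570-28800819, minus strand) and CHAC1 (chr15:40953221-40953470, plus strand) read as follows, 5′ to 3′ on the strand of the gene, with the match, on either strand, in capitals.
HSPA5: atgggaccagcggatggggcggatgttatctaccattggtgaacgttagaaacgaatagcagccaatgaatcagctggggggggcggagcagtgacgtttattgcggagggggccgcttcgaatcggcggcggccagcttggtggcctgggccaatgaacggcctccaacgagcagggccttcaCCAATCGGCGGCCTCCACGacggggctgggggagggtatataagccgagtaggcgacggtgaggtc
XBP1: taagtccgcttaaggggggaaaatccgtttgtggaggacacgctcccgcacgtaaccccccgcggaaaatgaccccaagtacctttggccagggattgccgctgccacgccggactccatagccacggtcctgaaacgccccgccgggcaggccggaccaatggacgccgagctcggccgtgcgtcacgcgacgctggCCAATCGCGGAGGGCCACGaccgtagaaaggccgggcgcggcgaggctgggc
CHAC1: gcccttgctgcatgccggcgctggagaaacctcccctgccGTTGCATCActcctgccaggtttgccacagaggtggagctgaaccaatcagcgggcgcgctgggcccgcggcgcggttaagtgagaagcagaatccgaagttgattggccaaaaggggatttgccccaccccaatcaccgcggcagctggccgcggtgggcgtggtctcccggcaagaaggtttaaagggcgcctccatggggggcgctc

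HSPA5, the endoplasmic reticulum chaperone BiP, went from 762, 719 and 719.8 CPM in the control libraries to 5404, 4852 and 5388 CPM in the activin libraries (log2 fold change 2.83, SE 0.41, adjusted p = 0.00129). XBP1 stood at 40.6, 38.2 and 45.8 CPM untreated and 121, 176 and 159.9 CPM after activin (log2 fold change 1.87, SE 0.19, adjusted p = 0.000194). Other genes of this compartment differed among themselves. HERPUD1 and HYOU1 rose by 2.49 and 1.91 on the log2 scale, but CALR (calreticulin) was not called at 933, 883 and 939 CPM untreated and 774, 1337 and 906 CPM after activin, with overlapping groups, and PDIA4, SDF2L1, CRELD2 and EDEM1 were not called either. HSP90B1 rose by 1.01 on the log2 scale and lost its call in 5 of the 6 fits with a library left out, the exception being activin replicate 2.

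The largest rise in the list was that of DDIT3, which encodes the proapoptotic factor CHOP. DDIT3 was at 4.3, 5.56 and 4.85 CPM in the controls and 150.02, 232 and 167 CPM after activin (log2 fold change 5.22, SE 0.29, adjusted p = 6.77e-06). CHAC1, which degrades glutathione, was at 6.22, 6.86 and 6.4 CPM untreated and 100.5, 170.2 and 109.6 CPM after activin (log2 fold change 4.29, SE 0.48, adjusted p = 0.000331), and the pseudokinase gene TRIB3 at 29.2, 29.9 and 28.1 CPM untreated and 275, 429 and 265 CPM after activin (log2 fold change 3.47, SE 0.33, adjusted p = 0.000162). In each of these genes activin replicate 2 was the highest library and the controls were tightly grouped. DDIT4 and SESN2, inhibitors of mTORC1, rose by 3.33 and 2.99, and PPP1R15A, which reverses the phosphorylation of eIF2alpha, by 3.29 on the log2 scale. ATF3 rose by 3.79, with activin replicate 3 at 45.1 CPM against 137 and 182 CPM in the other 2. ASNS, the asparagine synthetase gene, had 107, 126 and 131 CPM untreated and 634, 692 and 620.4 CPM after activin (log2 fold change 2.42, SE 0.15, adjusted p = 1.2e-05), and SLC7A11, the cystine transporter, 45.8, 38 and 43 CPM untreated and 298, 128 and 279 CPM after activin (log2 fold change 2.48, SE 0.29, adjusted p = 0.000388). The transcript of ATF4 itself was not called, at 76.3, 88.6 and 83.6 CPM untreated and 107, 143 and 114 CPM after activin (log2 fold change 0.55, adjusted p = 0.208), and PHGDH lost its call without control replicate 3 or activin replicate 2.

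Antioxidant genes rose as well. Of 29 NRF2 targets 12 rose and 1 fell (median 1.14). SRXN1, which repairs oxidised peroxiredoxins, was at 118, 116 and 109 CPM untreated and 656, 846 and 624 CPM after activin (log2 fold change 2.63, SE 0.2, adjusted p = 4.2e-05), and HMOX1, haem oxygenase 1, at 26.7, 30.8 and 28.2 CPM untreated and 134, 232 and 132 CPM after activin (log2 fold change 2.54, SE 0.26, adjusted p = 0.000218). The iron storage gene FTH1 had 1877, 1312 and 1452 CPM in the controls and 4783, 7648 and 4839 CPM after activin (log2 fold change 1.9, SE 0.22, adjusted p = 0.000413). FTL, the ferritin light chain, rose from 1069.8 ± 116 to 3493 ± 1197 CPM and TXNRD1, a thioredoxin reductase, from 213 ± 12.2 to 902 ± 153 CPM. ABCC2, an organic anion exporter, fell from 435 ± 69.8 to 99.5 ± 29.1 CPM (log2 fold change -2.13). GCLC, GSR and TXN were not called. The antioxidant response letters TGACNNNGC were in 2 of 8 matched promoters of risen members, in 3 of 14 promoters of members that did not rise, and in 11% of all promoters (12% of those of tested genes).

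While several reticulum chaperones rose, cytosolic and mitochondrial chaperone genes fell. Of 23 tested metallothionein and heat shock genes 7 fell and 2 rose, and 7 fell in each fit with a library left out. HSPA8, the constitutive cytosolic HSC70, dropped from 1498, 1494 and 1537 CPM to 202, 242 and 169.7 CPM (log2 fold change -2.88, SE 0.53, adjusted p = 0.00476). HSP90AB1 had 4421, 4594 and 4362 CPM untreated and 1460, 1564 and 1452 CPM after activin (log2 fold change -1.58, SE 0.24, adjusted p = 0.00173), and HSP90AA1 2016, 1870.2 and 1984 CPM untreated and 517, 309.7 and 635 CPM after activin (log2 fold change -2.01, SE 0.39, adjusted p = 0.00609). HSPH1, a nucleotide exchange factor for HSC70, and DNAJA1, its cochaperone, had log2 fold changes of -2.31 and -1.92, and HSPD1 and HSPE1, the mitochondrial chaperonins, of -1.5 and -2.06. The stress-inducible HSPA1A was scattered in both groups, at 4.08, 146 and 136 CPM untreated and 35.3, 56.7 and 1.82 CPM after activin, and neither it nor its near-identical copy HSPA1B was called. Reads of the pair can be split between them. The risen members were the metallothionein genes MT2A (122 ± 26.6 to 529 ± 183 CPM) and MT1F.

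Of 38 glycolysis and hypoxia genes 8 rose and 2 fell. NDRG1, a hypoxia and stress gene, was at 102, 136 and 107 CPM untreated and 904, 1419.5 and 925 CPM after activin (log2 fold change 3.24, SE 0.24, adjusted p = 3.81e-05), VEGFA at 30.5, 46.2 and 41.8 CPM untreated and 141, 193 and 144 CPM after activin (log2 fold change 2.01, SE 0.21, adjusted p = 0.000235), and the glucose transporter SLC2A3 rose by 2.48 on the log2 scale. Glycolytic enzymes themselves were mostly not called. LDHB fell from 1111 ± 39.8 to 468 ± 35.2 CPM (log2 fold change -1.25), PGAM1 fell and lost its call without control replicate 2 or activin replicate 3, and GAPDH, PGK1, ENO1 and HK2 were not called. Of 45 lysosome and autophagy genes 9 rose and 1 fell, with 6 risen and 5 fallen when activin replicate 2 was left out. SQSTM1, the autophagy receptor p62, had 380.5, 419 and 394 CPM untreated and 1191, 2056 and 1248 CPM after activin (log2 fold change 1.91, SE 0.23, adjusted p = 0.000477), and MAP1LC3B, which encodes LC3B, 54.9, 104 and 101 CPM untreated and 379.9, 398 and 244 CPM after activin (log2 fold change 1.98, SE 0.3, adjusted p = 0.00173).

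Replication genes were the main group that fell. The MCM2 to MCM7 proteins form the helicase that is loaded at origins, the GINS complex and CDC45 activate it, and polymerases with PCNA copy the strands. Of 53 tested genes of these steps 26 fell and 1 rose (median -1.02), and 18 to 26 fell when single libraries were left out. E2F factors are known to drive many of these genes in late G1 phase. Of the 26 fallen genes 24 were matched to a promoter, and the E2F words TTTGGCGC, TTTCGCGC, TTTCCCGC or TTTGCCGC were found on either strand in 10 of them, against 3 of 22 genes that did not fall and 2.79% of all promoters (4.23% of those of tested genes). Some matches overlap, as in MCM6. The promoter stretches of GINS2 (chr16:85688955-85689204), MCM3 (chr6:52284743-52284992) and MCM6 (chr2:135876444-135876693), all on the minus strand of GRCh38.p14, are shown with the E2F words, on either strand, in capitals. They are 3 of the fallen genes with such a word and not a full ranking by change.
GINS2: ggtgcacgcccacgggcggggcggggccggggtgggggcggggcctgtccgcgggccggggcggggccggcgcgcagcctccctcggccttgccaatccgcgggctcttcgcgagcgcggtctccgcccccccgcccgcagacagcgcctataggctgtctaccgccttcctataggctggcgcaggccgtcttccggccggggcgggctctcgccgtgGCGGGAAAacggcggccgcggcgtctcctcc
MCM3: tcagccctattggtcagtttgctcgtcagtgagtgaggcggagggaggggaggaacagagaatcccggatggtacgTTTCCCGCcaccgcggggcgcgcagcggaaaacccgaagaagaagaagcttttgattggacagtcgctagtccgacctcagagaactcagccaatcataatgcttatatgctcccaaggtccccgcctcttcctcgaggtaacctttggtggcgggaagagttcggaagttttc
MCM6: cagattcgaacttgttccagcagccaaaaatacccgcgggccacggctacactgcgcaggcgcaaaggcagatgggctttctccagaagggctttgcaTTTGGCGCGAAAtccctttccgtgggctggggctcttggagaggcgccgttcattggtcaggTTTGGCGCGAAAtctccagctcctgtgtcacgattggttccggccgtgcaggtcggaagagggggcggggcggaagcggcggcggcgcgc

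MCM5 fell the most in the list, from 202, 232 and 193 CPM in the control libraries to 23.1, 33.6 and 21.9 CPM in the activin libraries (log2 fold change -3, SE 0.22, adjusted p = 3.55e-05). The other 5 helicase subunits fell with it. MCM4 was at 241, 243 and 238 CPM untreated and 33.9, 44.6 and 37.6 CPM after activin (log2 fold change -2.64, SE 0.16, adjusted p = 1.2e-05) and MCM3 at 308, 327 and 319 CPM untreated and 71.3, 88.4 and 76.2 CPM after activin (log2 fold change -2.02, SE 0.16, adjusted p = 4.67e-05). MCM2, MCM6 and MCM7 had log2 fold changes of -2.46, -1.99 and -1.65, the last the smallest of the 6 subunits. GINS2 was at 50.7, 52.5 and 49.5 CPM untreated and 7.54, 11.3 and 8.02 CPM after activin (log2 fold change -2.5, SE 0.2, adjusted p = 4.67e-05), while GINS1, GINS3 and GINS4 had log2 fold changes of -0.98, -0.76 and -0.85, at adjusted p of 0.00636, 0.0241 and 0.019, and were below the minimum fold. ORC1, which marks origins, fell (log2 fold change -1.89), as did ORC3, which lost its call without control replicate 1, whereas the loaders CDC6 and CDT1 had log2 fold changes of -0.14 and -0.3 with overlapping groups. At the fork, POLA1, the catalytic subunit of polymerase alpha, had a log2 fold change of -1.94, with activin replicate 2 at 4.24 CPM against 14.1 and 17 CPM. FEN1 and LIG1, which process and join Okazaki fragments, had log2 fold changes of -1.47 and -1.49, and PCNA, the sliding clamp, fell from 284 ± 10.5 to 133 ± 20.9 CPM and lost its call without activin replicate 1. The risen gene was POLD4, the small accessory subunit of polymerase delta, at 6.26, 4.52 and 4.67 CPM untreated and 24.1, 43.9 and 28.4 CPM after activin (log2 fold change 2.64, SE 0.27, adjusted p = 0.00019).

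Of 20 nucleotide supply and chromatin assembly genes 9 fell and 0 rose. TYMS, thymidylate synthase, was at 203, 218 and 201 CPM untreated and 56.4, 76 and 55.6 CPM after activin (log2 fold change -1.73, SE 0.2, adjusted p = 0.000355), and RRM1, the large subunit of ribonucleotide reductase, had a log2 fold change of -1.51. RRM2, the small subunit, was not called. It had 114, 115 and 208 CPM in the controls and 379, 184 and 147 CPM after activin, with overlapping groups and a wide spread (adjusted p = 0.302). Of 36 tested replication-dependent histone genes 0 fell and 1 rose, H1-2, although 21 further histone genes were below the filter.

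Some genes also fell elsewhere in the cell cycle. Of 28 G1/S genes 3 fell and 0 rose. MYB was at 6.62, 3.73 and 5.53 CPM untreated and 0.923, 0.528 and 0.852 CPM after activin (log2 fold change -2.78, SE 0.37, adjusted p = 0.000811), TFDP1 had a log2 fold change of -1.03, and CCND2 was low throughout, at 2.59 ± 1.94 and 0.132 ± 0.156 CPM. TFDP1 lost its call without control replicate 1 or 2 or activin replicate 1 or 3, and CCND2 without control replicate 2 or 3 or activin replicate 1 or 3, so that MYB alone of the 3 was called without control replicate 2, activin replicate 1 or activin replicate 3. CCND1, CCNE1, CDK2, CDK4 and E2F1 were not called. MYC ranged from 11.1 to 156 CPM in the activin libraries against 20.1 to 26.2 CPM in the controls (adjusted p = 0.167). Of 66 mitosis genes 12 fell and 0 rose (median -0.6), and the count moved to 5 without control replicate 1 or control replicate 2, to 7 without activin replicate 2 and to 6 when libraries were scaled by their totals. MKI67, the proliferation marker, was at 616, 542 and 548 CPM untreated and 235, 128 and 238 CPM after activin (log2 fold change -1.5, SE 0.36, adjusted p = 0.0157), and lost its call without control replicate 1 or 2. CDK1 and CDC20 were not called, with log2 fold changes of 0.33 and 0.2 and overlapping groups. Of 44 recombination, Fanconi and mismatch repair genes 7 fell and 0 rose. Without control replicate 1 the count that fell was 3, and without activin replicate 2 it was 4. The mismatch repair gene MSH6 had a log2 fold change of -1.14 and lost its call without activin replicate 2.

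Among 38 CDK inhibitor and DNA damage response genes 13 rose and 2 fell, EDA2R and FAS. FAS lost its call when any library was left out and EDA2R without control replicate 2 or 3 or activin replicate 1 or 3, so that neither was called in those 4 fits. CDKN1A, the CDK inhibitor p21, was at 199, 228 and 198 CPM untreated and 540.2, 336 and 528 CPM after activin (log2 fold change 1.17, SE 0.2, adjusted p = 0.00303), CDKN1C, p57, at 5.65, 6.14 and 5.33 CPM untreated and 36.7, 57.7 and 26 CPM after activin (log2 fold change 2.81, SE 0.39, adjusted p = 0.00106), and CDKN2B, p15, at 10, 11.2 and 11.1 CPM untreated and 23.2, 19.8 and 22.9 CPM after activin (log2 fold change 1.03, SE 0.2, adjusted p = 0.00578). BTG1 and GADD45A, genes linked to growth arrest, rose by 3.08 and 2.42 on the log2 scale. GADD45G, another of that family, went from 0.0362 ± 0.0318 to 0.917 ± 0.46 CPM. MDM2, CCNG1, DDB2, BAX, TIGAR, FDXR and ZMAT3, which are known to respond to DNA damage, were not called. Several risen members also belong to lists described above, such as SESN2 and GDF15. Of 39 cell death genes 6 rose and 3 fell. TNFRSF10B, the death receptor DR5, was at 135, 133 and 139 CPM untreated and 532, 594 and 544 CPM after activin (log2 fold change 2.04, SE 0.21, adjusted p = 0.00019), and the BH3-only genes BBC3 and PMAIP1 rose by 1.65 and 1.67. BID, another BH3 gene, had a log2 fold change of -1.32. MLKL lost its call without control replicate 1, which left 1 fallen gene. FAS was the third that fell. The caspase genes and BCL2, BCL2L1 and MCL1 were not called.

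**Figure D4:**
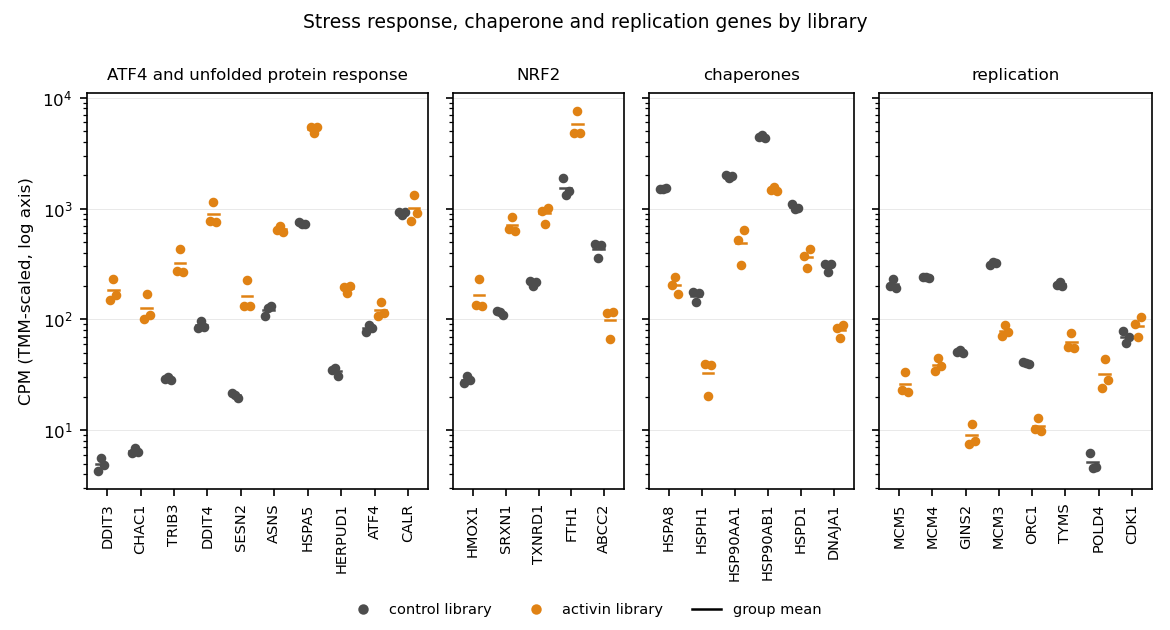
CPM on a log axis in each control library (grey) and each activin library (orange) for stress response, NRF2, chaperone and replication genes, with a bar at the group mean. The activin libraries lie above all controls for DDIT3 to ATF4 and for the first 4 NRF2 targets, below them for ABCC2, the 6 chaperones and the first 6 replication genes, above them for POLD4, and the groups overlap for CALR and CDK1.

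Some lipid and respiratory genes fell. Of 25 cholesterol synthesis and uptake genes 6 fell and 1 rose (median -0.59), and 3 fell without activin replicate 1. ACAT2, which starts the pathway, was at 66.5, 54.6 and 64.3 CPM untreated and 15.7, 19.1 and 12.3 CPM after activin (log2 fold change -1.98, SE 0.23, adjusted p = 0.000421), and FDPS, a prenyl transferase, had a log2 fold change of -1.25. SQLE, an oxidising step, was not called. SCD, which makes monounsaturated fatty acids, was among the fallen genes with the most reads, at 2258, 2092 and 2468 CPM untreated and 802, 802 and 749 CPM after activin (log2 fold change -1.53, SE 0.24, adjusted p = 0.0018), while FASN was not called (log2 fold change -0.61). Of 77 nuclear oxidative phosphorylation genes 11 fell and 0 rose, and 20 fell without activin replicate 2. ATP5ME and NDUFB10, subunits of ATP synthase and of complex I, had log2 fold changes of -1.96 and -1.87. Of 13 mitochondrially encoded protein genes 1 fell, MT-ND2, at 12910, 15618 and 15469 CPM untreated and 4888, 6182 and 5272 CPM after activin (log2 fold change -1.43, SE 0.31, adjusted p = 0.0107). Of 84 cytosolic ribosomal protein genes 2 fell and 0 rose (median -0.1), RPS24 and RPS27L, and neither was called when libraries were scaled by their totals.

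Interferons are secreted proteins that switch on the interferon-stimulated genes, and IFNB1 and IFNL1 to IFNL3 rose from almost no reads in the controls. The targets carry a known word, the interferon-stimulated response element, which is GAAA repeated after 2 free bases. It was found on either strand in 11 of the 15 matched promoters of the risen interferon-stimulated genes and in 10 of 19 matched promoters of those that did not rise, against 3.07% of all promoters (2.37% of those of tested genes). In the list of interferons, receptors and sensors it was in 5 of 10 risen and 0 of 18 other genes. The promoters of IFI44 (chr1:78649539-78649788), IFIT3 (chr10:89327747-89327996) and ISG15 (chr1:1013247-1013496), all on the plus strand of GRCh38.p14, each carry it and are shown with the word, on either strand, in capitals.
IFI44: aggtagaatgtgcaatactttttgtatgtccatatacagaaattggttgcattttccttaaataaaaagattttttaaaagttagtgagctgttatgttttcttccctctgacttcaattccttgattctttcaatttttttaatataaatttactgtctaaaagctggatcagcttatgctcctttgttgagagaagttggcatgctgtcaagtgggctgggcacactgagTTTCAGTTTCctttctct
IFIT3: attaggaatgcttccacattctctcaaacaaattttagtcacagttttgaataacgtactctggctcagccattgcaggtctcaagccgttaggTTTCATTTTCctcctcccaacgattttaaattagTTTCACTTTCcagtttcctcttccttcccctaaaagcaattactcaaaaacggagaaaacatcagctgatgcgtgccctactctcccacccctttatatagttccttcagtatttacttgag
ISG15: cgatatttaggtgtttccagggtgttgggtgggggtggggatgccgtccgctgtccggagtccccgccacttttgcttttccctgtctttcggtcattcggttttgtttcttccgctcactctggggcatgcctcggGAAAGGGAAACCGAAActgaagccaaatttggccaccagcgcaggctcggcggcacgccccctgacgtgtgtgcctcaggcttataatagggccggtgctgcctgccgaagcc

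Of 46 tested interferon-stimulated genes 19 rose and 0 fell (median 1.02). ISG15, a ubiquitin-like modifier, had 38.9, 44.1 and 36.6 CPM in the control libraries and 465, 778 and 554 CPM in the activin libraries (log2 fold change 3.91, SE 0.25, adjusted p = 1.23e-05). OASL, an antiviral protein related to the oligoadenylate synthetases, had 4.38, 4.7 and 4.91 CPM untreated and 152, 260.5 and 156 CPM after activin (log2 fold change 5.34, SE 0.36, adjusted p = 2.1e-05). IFIT2 was at 3.46, 2.45 and 3.52 CPM untreated and 90.5, 60.3 and 117 CPM after activin (log2 fold change 4.83, SE 0.3, adjusted p = 1.23e-05). For ISG15 and OASL activin replicate 2 was the highest library, while for IFIT2 it was the lowest of the 3. IFIT3 and IFI44 rose by 4.11 and 5.09 on the log2 scale, IFI44 to 6.05 ± 1.73 CPM. Of the list 27 members were not called, among them GBP1, IFITM1, IFITM3, OAS2, OAS3 and USP18.

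Of 36 interferons, receptors and sensors 13 rose and 0 fell. The type III interferon IFNL1 had 0 counts in the 3 control libraries and 13, 19 and 12.5 CPM after activin, at least 303-fold higher against 3 counts in the smallest control library (adjusted p = 0.000194). IFNL2 and IFNL3, at 15.6 ± 2.07 and 16.9 ± 4.36 CPM, are near-identical to each other, so their separate values are uncertain. IFNB1, a type I interferon, had 0, 0 and 0.0497 CPM in the controls and 1.44, 1.94 and 3.05 CPM after activin (log2 fold change 6.74, SE 1.05, adjusted p = 0.0036). IFNE, another type I interferon, was not called, at 0.702, 0.967 and 1.18 CPM in the controls and 0.868, 0.128 and 0.279 CPM after activin (log2 fold change -1.15, adjusted p = 0.507). IRF7, the factor that amplifies interferon production, rose from 3.19, 3.26 and 2.66 to 29, 41.9 and 26.8 CPM (log2 fold change 3.42, SE 0.22, adjusted p = 1.59e-05), and the RNA sensor gene IFIH1 (MDA5) from 9.78, 6.63 and 7.7 to 38.8, 27.5 and 36.8 CPM (log2 fold change 2.1, SE 0.23, adjusted p = 0.000315). DDX58 (RIG-I) rose by 1.59 and lost its call without control replicate 1, control replicate 2, activin replicate 1 or activin replicate 3. MAVS, TLR3, IRF3, IRF9, TBK1 and the receptor genes IFNAR1, IFNAR2 and IFNLR1 were not called. The adjusted p of IFNLR1 (0.00766) was under 0.05, but its log2 fold change of 0.88 was below the minimum fold. Of 21 MHC class I genes 2 rose and 0 fell (median 0.65). The risen share, 9.52%, was near the 6.78% of all tested genes. HLA-E rose by 1.1 on the log2 scale and lost its call without activin replicate 2. TAPBPL rose by 1.68 and lost its call without control replicate 2, control replicate 3 or activin replicate 1.

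The chemokines and cytokines had the highest median of the 39 lists, 2.03, with 13 of 25 tested members risen and 0 fallen. When single libraries were left out, 10 to 12 rose. The risen members included the cytokine genes IL1A, IL11, IL15, IL23A and CSF2 beside the chemokines. CXCL8, the neutrophil attractant interleukin 8, had 0.457, 0.55 and 0.36 CPM in the controls and 59.9, 60.3 and 63.6 CPM after activin (log2 fold change 7.07, SE 0.37, adjusted p = 5.16e-06). CXCL1 had 0.882, 0.654 and 0.683 CPM untreated and 15, 21.9 and 18.8 CPM after activin (log2 fold change 4.65, SE 0.32, adjusted p = 2.49e-05), and CCL5, which attracts T cells, 0, 0.0892 and 0.0994 CPM untreated and 17.1, 23.3 and 17.7 CPM after activin (log2 fold change 8.16, SE 0.94, adjusted p = 0.000388). CXCL10, induced by interferons, had 0 counts in each control and 4.17, 3.35 and 4.64 CPM after activin, at least 82.7-fold higher, and CCL20 had 0 counts and 2.86, 2.31 and 3.29 CPM, at least 57.5-fold higher. TNF, IL6 and IL1B were below the filter. Of 23 NF-kB genes 6 rose and 0 fell, and 6 rose in each fit with a library left out. RELB and NFKB2, subunits of the noncanonical pathway, had 6.47, 6.2 and 5.53 CPM untreated and 34.2, 51.6 and 35.3 CPM after activin (log2 fold change 2.73, SE 0.21, adjusted p = 4.2e-05) and 80.1, 88.6 and 75.3 CPM untreated and 251, 385 and 245 CPM after activin (log2 fold change 1.85, SE 0.2, adjusted p = 0.00027). TNFAIP3, the feedback inhibitor A20, rose by 2.03, while NFKB1, RELA, NFKBIA and ICAM1 were not called.

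The cornified envelope, S100 and squamous keratin genes, known from stratified epithelia, included genes with 0 counts in the controls. Of 33 tested members 17 rose and 2 fell (median 1.43, or 1.36 with the 7 members at 0 counts in a group set to their bounds), and 13 to 17 rose when single libraries were left out. A further 11 members were below the filter. Since members at 0 counts in the controls could not fall, the share of risen members is in part set by the filter. S100P, a calcium-binding protein, had 0 counts in each control and 2.36, 2.82 and 1.42 CPM after activin, at least 44.9-fold higher, and SPRR1B, a cornified envelope precursor, had 0 counts and 0.8, 1.42 and 1.24 CPM, at least 23.6-fold higher. SPRR2D, on chromosome 1, was at 0 counts in each control and 27.2, 48.3 and 37.3 CPM after activin. The SPRR2 genes are near-identical, and how reads were shared among them is not stated, so the separate values of SPRR2D and of SPRR2A and SPRR2E, at 0.482 ± 0.344 and 0.338 ± 0.0356 CPM, are uncertain. SPRR2A and SPRR2E also lost their calls without any 1 control or without activin replicate 2 or 3. KRT17, a keratin of basal and stressed epithelia, had 0.196, 0 and 0.149 CPM untreated and 9.99, 15.2 and 9.42 CPM after activin (log2 fold change 6.63, SE 1.02, adjusted p = 0.00186), and LCN2, lipocalin 2, 1.11, 1.26 and 0.534 CPM untreated and 7.84, 11 and 8.97 CPM after activin (log2 fold change 3.26, SE 0.35, adjusted p = 0.000288). KRT13 fell from 5.83, 3.69 and 6.74 to 0.448, 0.88 and 1.04 CPM (log2 fold change -2.78, SE 0.41, adjusted p = 0.00143), so the keratins did not move together, and S100A4 fell from 306 ± 38.3 to 106 ± 26.6 CPM. KRT5, KRT6A and TGM1 were not called.

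**Figure D5:**
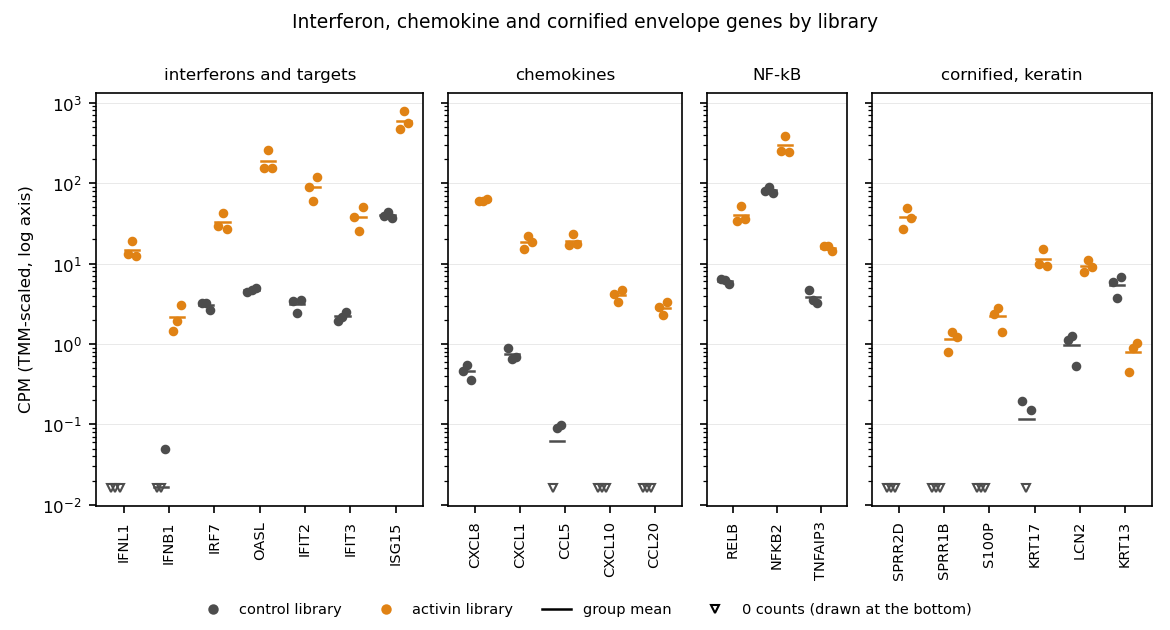
CPM on a log axis in each control library (grey) and each activin library (orange) for interferon, chemokine, NF-kB and cornified envelope genes, with a bar at the group mean and open triangles for libraries with 0 counts. The activin libraries lie above all controls for 20 of the 21 genes and below them for KRT13, and IFNL1, CXCL10, CCL20, SPRR2D, SPRR1B and S100P have 0 counts in each control.

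Most lineage genes were not called. Of 19 tested mesendoderm and endoderm genes 2 rose and 0 fell. The risen share, 10.5%, was near the 6.78% of all tested genes. The 2 were GATA6 at 6.4, 5.19 and 6.75 CPM untreated and 14.4, 17.6 and 12.9 CPM after activin (log2 fold change 1.29, SE 0.24, adjusted p = 0.00507) and PRDM1 at 4.87, 4.07 and 4.18 CPM untreated and 10.4, 10.8 and 12 CPM after activin (log2 fold change 1.34, SE 0.2, adjusted p = 0.0017). SOX17, GATA4, GSC, CER1 and TBXT, markers of definitive endoderm and its precursor, were not analysed here, MIXL1 was below the filter, and EOMES was at 3.36, 4.31 and 3.86 CPM untreated and 1.72, 1.28 and 2.63 CPM after activin (log2 fold change -1.03, adjusted p = 0.0701). Of 18 tested liver plasma protein genes 4 rose and 0 fell, and the median of 1.67 rests on low levels. With the members at 0 counts in a group set to their bounds, that median was 1.04. SERPINA1, alpha-1 antitrypsin, was at 3.61, 4.73 and 4.6 CPM untreated and 15.1, 13.1 and 13 CPM after activin (log2 fold change 1.67, SE 0.25, adjusted p = 0.00145), and APOB had 0 counts in each control and 0.882, 0.352 and 0.452 CPM after activin, at least 11.5-fold higher. ALB, APOA1 and TF were all measured, and of these TF rose, to 1.76 ± 0.349 CPM. Of 24 tested intestinal differentiation, mucin and trefoil genes 5 rose and 0 fell, among them CEACAM1 from 1.18 ± 0.481 to 6.07 ± 1.2 CPM and SLC5A1, the sodium glucose transporter, from 0.153 ± 0.0492 to 1.58 ± 0.145 CPM, while CDX2 had a log2 fold change of -0.05. A further 16 members of this list were below the filter and 7 were not analysed here. MUC5AC also rose but lost its call when any library was left out. With limma on log2(FPKM + 1), 0 members of the list rose. Of 26 Wnt target and stem genes 4 rose and 1 fell, with 2 risen without control replicate 1 or control replicate 3. KLF4, a factor of differentiated epithelium, had 24.7, 25.2 and 11.3 CPM untreated and 129.7, 159 and 124 CPM after activin (log2 fold change 2.75, SE 0.34, adjusted p = 0.000536), and AXIN2, a direct Wnt target, fell by 1.04 and lost its call without control replicate 1, activin replicate 1 or activin replicate 3.

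Outside the lists, the largest fall of a called protein-coding gene with at least 5 CPM in a group and no overlap between groups was that of CYP24A1, the vitamin D 24-hydroxylase, at 112, 111 and 114 CPM in the controls and 7.01, 8.45 and 6.67 CPM after activin (log2 fold change -3.93, SE 0.41, adjusted p = 0.000236). It was followed by ATOH8, a helix-loop-helix factor, at 6.65, 5.29 and 6.04 CPM untreated and 0.57, 0.368 and 0.253 CPM after activin (log2 fold change -3.91, SE 0.44, adjusted p = 0.000329), and by ANK1, METTL7A and MAP1A, with log2 fold changes of -3.68, -3.57 and -3.46. Further large rises were those of CFB, complement factor B, at 0.294, 0.402 and 0.298 CPM untreated and 19.2, 16.2 and 16.1 CPM after activin (log2 fold change 5.69, SE 0.71, adjusted p = 0.000584), and of KLHDC7B, with 0 counts in each control and 6.42, 11 and 4.48 CPM after activin, at least 149-fold higher. TMEM238 rose to 7.89 ± 2.97 CPM from 0.0824 ± 0.0758 CPM. Among the genes with the most reads, HMGA1, a chromatin protein, rose from 1417 ± 298 to 3512 ± 1302 CPM and lost its call without activin replicate 2. PLEC, a cytolinker, and the amino acid transporter SLC7A5 had log2 fold changes of 1.78 and 1.71, and FLNA, filamin A, of 1.27, losing its call without activin replicate 2. PTMA (prothymosin alpha), PPIA (cyclophilin A) and HNRNPA2B1, an RNA-binding protein, had log2 fold changes of -1.29, -1.23 and -1.58. TUBB, a beta tubulin, and MT-RNR1, a mitochondrial ribosomal RNA, had -1 and -1.52, and TUBB lost its call without control replicate 1 or 2 or activin replicate 1 or 3, MT-RNR1 without activin replicate 1. The lncRNA AC011603, with a log2 fold change of -3.16, lies antisense to TUBA1B, and since strand use in counting is not stated its reads cannot be told apart from those of TUBA1B. AC006064, AC242842 and AP001972 also fell, but each overlaps coding genes on its own strand, so that their values are uncertain.

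Of the 297 KEGG terms of the table with at least 15 tested genes, 214 had more risen than fallen genes. Over the 5790 annotated genes 8.27% rose and 5.61% fell. The terms with the highest share of risen genes were Mineral absorption (10 of 34), Complement and coagulation cascades (15 of 53), IL-17 signaling pathway (19 of 69), Prion diseases (6 of 22), Ferroptosis (10 of 37), Rheumatoid arthritis (16 of 60), ECM-receptor interaction (15 of 60) and Cytokine-cytokine receptor interaction (39 of 158). Those with the highest share of fallen genes were DNA replication (21 of 35), Mismatch repair (10 of 22), Base excision repair (9 of 33), Nucleotide excision repair (12 of 45), One carbon pool by folate (5 of 20), Antifolate resistance (6 of 25), Steroid biosynthesis (4 of 19) and Homologous recombination (8 of 39). The repair terms share replication proteins such as PCNA and the RFC, RPA and polymerase subunits with DNA replication. The terms were picked for these shares, so the shares are a description with no test.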

How the data were processed

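RNA was measured in 9 libraries of HCT116 cells, 3 each of untreated, activin and activin with HGF, and the first 6 are described. The submitters' processing notes name cutadapt 1.9, a read trimmer, HISAT2 2.0.4, an aligner, and StringTie 1.3.4d, an assembler. The build is not given in the sources used here, and the gene coordinates of the table are of GRCh38. KEGG terms were those that the table pairs with its genes. The deposited table held raw read counts per gene, whole numbers that had not been normalized. The deposited FPKM values are those of the authors, scaled for gene length and library size. The counting program, its annotation and its use of strand are not given in the sources used here.

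Counts of 33861 genes were read, of which 20988 passed filterByExpr and were fitted with edgeR 4.0.16 in R 4.3.3 (trimmed mean of M values, quasi-likelihood F-test, a mean per group over 9 libraries, no block). Calls needed both a log2 fold change of 1 or more in either direction and a p under 0.05 after Benjamini-Hochberg adjustment over these genes. The script was also tested on simulated counts, with means and dispersions taken from the real counts. It called 82% of 200 genes simulated with an absolute log2 fold change of 2, and 4.65% of its calls were unchanged genes. The 200 genes were drawn only from genes above a minimum mean count, so the 82% does not cover genes with few counts. The 6 libraries held between 57453977 and 77016167 counts each.

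The members and lists were chosen with earlier results of these data known. Genes were named by rule: the 10 largest changes in each direction with a mean of at least 5 CPM in the higher group and no overlap between groups, the 10 called genes with the most reads in each direction, and up to 4 called members of each list in each direction, with further members named for their role. The rule left out FOXM1, CXCR4 and AFP, microRNA and small nucleolar RNA genes, pseudogenes and readthrough genes, and some items are not reported here. A fold against 0 counts is a bound against 3 counts in the smallest library and covers counting error only. Promoters were the 250 bases before RefSeq starts of GRCh38.p14, searched on both strands. Alternatives were other scalings, DESeq2 1.42.0, other filters, a replicate block, the 6 libraries alone, limma 3.58.1 on log2(FPKM + 0.1) and log2(FPKM + 1), other thresholds, and each library left out. Python 3.11.15 with pandas 2.3.3 and matplotlib 3.10.9 made the tables and plots.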

Additional observations from a re-analysis of the deposited data

How the results depend on the processing

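The 2394 called genes became 1176 with limma on log2(FPKM + 1), 1421 at an adjusted p under 0.01 and 3776 with no minimum fold. The 1424 higher calls became 691 with limma on log2(FPKM + 1) and 856 at an adjusted p under 0.01. The 970 lower calls became 485, 565 and 1766 in these 3 settings. With a library left out the total ranged from 1688 to 2234, the higher calls from 1013 to 1387 and the lower calls from 599 to 976. DESeq2 called 2922 genes, 1777 higher and 1145 lower. Scaling by library totals moved the median log2 fold change of all genes from 0.02 to 0.1 and the share of calls that were higher from 59.5% to 68.7%. The cause of these shifts was not tested. Deviations from the group means in control and activin samples of the same replicate number had Pearson r of 0.0429, 0.0882 and 0.0174. For different numbers r ran from -0.0613 to 0.0274. With so few samples these values near 0 cannot show whether the numbers pair the samples. With a replicate block 2218 genes were called, 1279 higher and 939 lower, 2114 of them among the 2394. Of 351 called genes followed over all settings 205 lost no call, 249 were called in each fit with a library left out, and 0 changed direction. Genes with under 1 CPM in both groups, and genes with 0 counts in a group, are limited by depth.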

Other observations

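Of the genes that make and process RNA, more fell than rose. The terms below were chosen after their values were seen, and their shares are a description with no test. Of 132 tested KEGG spliceosome genes 26 fell and 0 rose (median log2 fold change -0.68), of 73 genes of ribosome biogenesis 14 fell and 0 rose (median -0.56), and of 151 RNA transport genes 25 fell and 2 rose (median -0.45). The proteasome had 7 fallen and 0 risen genes of 42 (median -0.61). In these 3 terms with 0 risen genes by edgeR, between 0 and 2 genes were higher at an unadjusted p under 0.05, and DESeq2 called 0 higher. Over all annotated genes 5.61% fell and 8.27% rose.

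Kinds of genes differed in their shares. Of 14543 protein-coding genes 7.54% rose and 4.52% fell. Of 3727 lncRNA genes 216 rose and 59 fell (5.8% and 1.58%, median log2 fold change 0.28), while of 1926 pseudogenes 68 rose and 230 fell (3.53% and 11.9%, median -0.39). Reads of pseudogenes and of their parent genes can be shared, and how the counting treated such reads is not given in the sources used here.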
